A study of Mus musculus with 6 samples.

Results

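The genes described here build and hold together the acetylcholine receptor of the neuromuscular junction, the synapse at which a motor axon drives a skeletal muscle fibre. They were 10 genes chosen by name: the receptor subunits Chrna1, Chrnb1, Chrnd, Chrng and Chrne, the receptor-clustering genes Musk, Dok7, Rapsn and Lrp4, and the acetylcholine-degrading enzyme gene Ache. All 10 were found among the 18089 genes of the table and all 10 passed the filter on low counts. They were measured by RNA-seq in ischemic gastrocnemius, a calf muscle, 7 days after hindlimb ischemia (HLI), in which the femoral artery is ligated and a segment excised. The 6 libraries came from male C57BL/6 mice of 8 to 10 weeks, all of which had the surgery. They fell into 3 from wild-type (WT) mice and 3 from mice lacking Gpr174 (labelled GPR174-KO and written Gpr174-/Y, since the gene is X-linked), a G protein-coupled receptor found mainly on lymphocytes. The deletion was global, so an effect in the fibres cannot be told apart from an effect through other cells, and with no non-ischemic muscle or other day among the samples used here, every value is a day 7 level.

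The muscle acetylcholine receptor is a pentamer of 2 alpha (Chrna1), 1 beta (Chrnb1) and 1 delta (Chrnd) subunit with 1 gamma (Chrng) or epsilon (Chrne) subunit. Fetal, denervated and regenerating fibres use gamma, and mature innervated fibres replace it with epsilon. Receptor genes are transcribed all along a fibre by E-box-binding myogenic factors until nerve activity silences them outside the synapse, while at the synapse agrin from the nerve acts through LRP4, MuSK, DOK7 and rapsyn to cluster the receptor.

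The sequences just upstream of the genes were searched for the letters through which both kinds of control are known to work. These are the E-box (CANNTG, with CAGCTG the form many myogenic factors bind) and the N-box (CCGGAA, bound by the Ets factor GABP in synaptic genes). No window was read for Chrnd, Rapsn or Lrp4. The 250 bases before the annotated start are shown for the gamma and epsilon genes, whose transcripts moved in opposite directions, and for the alpha and beta genes, which differed most among the shared subunits. They are from RefSeq on GRCm38.p6, written 5′ to 3′ on the strand of the gene, with each CANNTG and CCGGAA in capitals, searched on both strands.
Chrng, chr1:87205561-87205810, plus strand: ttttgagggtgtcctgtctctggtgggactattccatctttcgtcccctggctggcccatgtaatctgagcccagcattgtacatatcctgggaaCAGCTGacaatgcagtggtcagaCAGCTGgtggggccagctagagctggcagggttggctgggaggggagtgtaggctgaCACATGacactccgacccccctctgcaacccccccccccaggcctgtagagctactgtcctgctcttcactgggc
Chrne, chr11:70619195-70619444, minus strand: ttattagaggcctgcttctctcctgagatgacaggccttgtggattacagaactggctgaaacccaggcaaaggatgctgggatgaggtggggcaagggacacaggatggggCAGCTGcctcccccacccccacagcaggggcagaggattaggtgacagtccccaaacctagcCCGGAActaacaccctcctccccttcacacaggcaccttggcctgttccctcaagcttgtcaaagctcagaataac
Chrna1, chr2:73580339-73580588, minus strand: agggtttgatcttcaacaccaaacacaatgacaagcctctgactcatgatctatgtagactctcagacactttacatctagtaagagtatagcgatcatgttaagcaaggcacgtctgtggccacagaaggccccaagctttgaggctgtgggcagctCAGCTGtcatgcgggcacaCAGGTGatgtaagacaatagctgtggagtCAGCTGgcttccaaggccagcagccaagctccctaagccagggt
Chrnb1, chr11:69795938-69796187, minus strand: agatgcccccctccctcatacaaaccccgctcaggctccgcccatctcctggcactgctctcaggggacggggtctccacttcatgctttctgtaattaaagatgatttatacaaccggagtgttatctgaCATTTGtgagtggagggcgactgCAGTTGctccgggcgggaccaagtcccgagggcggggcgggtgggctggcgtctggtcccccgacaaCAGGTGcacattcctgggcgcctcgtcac
The Chrng window held 3 CANNTG, of which 2 were CAGCTG, lying 149 and 126 bases before the start. The Chrna1 window also held 3 CANNTG with 2 of the CAGCTG form, 86 and 38 bases before the start. The Chrne window held 1 CAGCTG, 132 bases before the start, and 1 CCGGAA at 70 bases, and it alone of the 4 windows shown held that N-box core. Chrnb1 had 3 CANNTG and neither CAGCTG nor CCGGAA. Among the windows not shown, that of Musk, whose levels overlapped between groups, held 3 CANNTG with 1 CAGCTG, 62 bases before the start. The Dok7 and Ache windows held neither CAGCTG nor CCGGAA. The Chrng and Chrna1 windows ended at the edge of the annotated gene. Those of Chrne, Chrnb1, Musk, Dok7 and Ache reached into it, since the start used lay inside the gene. For Musk this held for nearly the whole window, its CAGCTG included. Among 32851 windows of the same length in the table, 66.2% held a CANNTG, 13% held a CAGCTG, 1.26% held 2 or more CAGCTG and 12% held a CCGGAA. A match of letters is a description of the window and not a binding site.

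The libraries held 18417107 to 19394505 estimated counts each. The library labels were checked on Gpr174 itself, which was scarce: 8, 2 and 5 counts in the WT libraries against 1, 0 and 0 in the Gpr174-/Y libraries. Replicate 2 of each group tended to stand between the others. Among the 3859 genes with a mean CPM (counts scaled to a common library size) of at least 50, it lay between replicates 1 and 3 for 86.0% of genes in WT and 76.5% in Gpr174-/Y, and for 9 and 8 of the 10 junction genes. WT replicate 3 was the WT library nearest to the Gpr174-/Y mean for 8 of the 10. The labels number the libraries and tie none to a named animal, so the p-values measure the spread between these libraries. Over many sets of 3 unrelated libraries each would take the middle place equally often. Within a single set, genes that vary together can put the same library in the middle for most genes, so these shares cannot settle independence. Whether replicate 2 is independent of the others was not tested, and if it is not, each SD and p-value with n = 3 understates the spread between animals. Each call was therefore also taken from replicates 1 and 3 of each group alone, where no gene of 14447 passed an adjusted p of 0.05 in edgeR's quasi-likelihood test (lowest adjusted p = 0.0542, with 5026 genes at an unadjusted p under 0.05), and 6 of the 10 junction genes had an unadjusted p under 0.05.

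The receptor subunits did not move together. Chrna1, Chrnd and Chrng were higher in Gpr174-/Y muscle and Chrne and Chrnb1 were lower. By the edgeR fold change, the fetal gamma transcript was at 3.21 times its WT level and the adult epsilon transcript at 0.336 of it. Of the 10 junction genes, 4 were higher (Chrna1, Chrnd, Chrng and Dok7), 2 were lower (Chrnb1 and Chrne) and 4 were not called (Musk, Rapsn, Lrp4 and Ache) at an adjusted p under 0.05 by edgeR. That count is near the background, since of 14395 genes tested 27.0% were higher and 27.6% lower at the same threshold. Non-overlapping CPM ranges were found for 6 of the 10 junction genes, beside 65.6% of those tested. Beyond a 2-fold change as well (absolute log2 fold change over 1), Chrna1 and Chrng were higher, as were 3.45% of all genes, and Chrne was lower, as were 4.84%. The median log2 fold change was 0.07 over the 10 genes and 0.00 over all tested genes.

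Scaling decided part of this. With plain total counts in place of trimmed mean (TMM) scaling, the median log2 fold change of all genes rose by 0.274, and the split of called genes went from 3891 higher and 3972 lower to 7303 higher and 2010 lower. For the junction genes it went from 4 higher and 2 lower to 5 higher and 1 lower, with Rapsn gained and Chrnb1 lost. Chrna1, Chrnd, Chrng, Dok7 and Chrne kept their call and direction under both scalings.

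**Figure D1:**
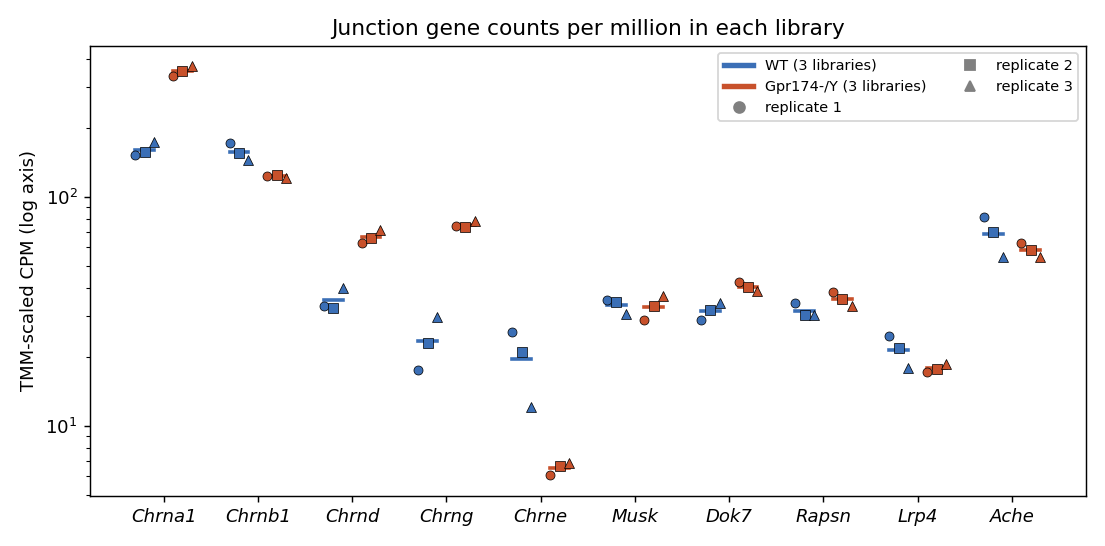
TMM-scaled CPM (log axis) of the 10 junction genes in each library, WT in blue and Gpr174-/Y in orange, with bars at the group means and marker shapes for the replicates. The 3 Gpr174-/Y libraries lie above all 3 WT libraries for Chrna1, Chrnd, Chrng and Dok7, below them for Chrnb1 and Chrne, and overlap them for the other 4 genes.

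Chrng encodes the gamma subunit of the fetal receptor. It had 281, 387 and 531 counts in WT replicates 1 to 3 and 1554, 1563 and 1690 in Gpr174-/Y, or 17.5, 23.0 and 29.8 CPM against 74.3, 73.6 and 78.6 CPM. The 3 Gpr174-/Y libraries were close to each other and far above the highest WT library, whereas the WT libraries spread widely. The log2 fold change was 1.68 (SE 0.17), with an adjusted p of 0.0009 by edgeR, and with replicates 1 and 3 alone it was 1.69 with an adjusted p of 0.0542 by edgeR.

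Chrne encodes the epsilon subunit that replaces gamma in the adult receptor. It had 411, 353 and 216 counts in WT and 127, 142 and 148 in Gpr174-/Y, or 25.6, 21.0 and 12.1 CPM against 6.07, 6.69 and 6.88 CPM. Here too the groups did not overlap, and WT replicate 3, the highest WT library for Chrng, was the lowest for Chrne. The log2 fold change was -1.57 (SE 0.26, edgeR adjusted p = 0.00329), or -1.54 with replicates 1 and 3 alone (edgeR adjusted p = 0.0687). A mouse gene inside Chrne, 4930544D05Rik, had 62, 55 and 33 counts in WT and 15, 26 and 24 in Gpr174-/Y, and the share of Chrne reads that could belong to it was not tested.

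Because the gamma and epsilon genes fill the same place in the receptor, their transcripts were set against each other within each library, per length in TPM (transcript abundance per length and library), a ratio that does not depend on library scaling. Chrng made up 36.4%, 47.8% and 67.1% of the sum of Chrng and Chrne in WT replicates 1 to 3, and 91.1%, 90.3% and 90.5% in Gpr174-/Y. The WT libraries thus ran from mostly epsilon to mostly gamma, while the Gpr174-/Y libraries agreed within 1 percentage point. From plain counts the shares were 40.6%, 52.3% and 71.1% against 92.4%, 91.7% and 91.9%, the same order of libraries between groups. The linear ratio of Chrng to Chrne was 0.573, 0.916 and 2.04 in WT and 10.3, 9.29 and 9.48 in Gpr174-/Y. The mean log2 ratio went from 0.03 ± 0.93 (SD, n = 3) to 3.27 ± 0.08 (SD, n = 3), a difference of 3.24, or 9.47-fold. A 2-sided exact permutation test gave p = 0.1, the smallest that 3 against 3 libraries allow. These are sums over the annotated transcripts of each gene. The Chrng transcript that was the larger of 2 in WT had 51.3% to 56.0% of Chrng counts in WT and 45.7% to 58.1% in Gpr174-/Y, and the main Chrne transcript had 75.2% to 82.0% and 76.3% to 81.4% of Chrne counts, so neither share separated the groups.

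**Figure D2:**
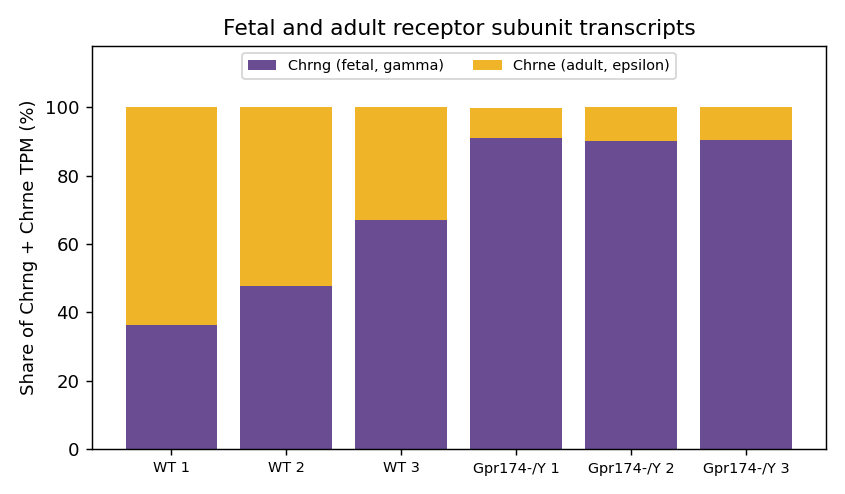
Share of Chrng (purple) and Chrne (yellow) in the sum of their TPM in each of the 6 libraries, in percent. Chrng takes 36.4% to 67.1% in WT and 90.3% to 91.1% in Gpr174-/Y.

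Chrna1 encodes the alpha subunit, which carries the acetylcholine binding sites. It had 151.3, 156.3 and 173.2 CPM in WT and 336.3, 352.5 and 370.6 CPM in Gpr174-/Y. All Gpr174-/Y libraries were far above all WT libraries, and the log2 fold change was 1.14 (SE 0.08, edgeR adjusted p = 0.000449), or 1.12 with replicates 1 and 3 alone (edgeR adjusted p = 0.0542).

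Chrnd encodes the delta subunit and is the chromosome 1 neighbour of Chrng. It had 33.3, 32.7 and 39.7 CPM in WT and 62.6, 65.8 and 71.2 CPM in Gpr174-/Y. The groups were again apart, with a log2 fold change of 0.92 (SE 0.09, edgeR adjusted p = 0.000871), under the 2-fold threshold. It passed that threshold with total counts (1.19), under both FPKM pseudocounts (1.12 and 1.19) and without WT replicate 3 (1.02), which made 4 junction genes past both thresholds.

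Chrnb1 encodes the beta subunit. It had 170.9, 155.0 and 144.4 CPM in WT and 122.6, 123.8 and 121.0 CPM in Gpr174-/Y. All 3 Gpr174-/Y libraries were lower, by a log2 fold change of -0.36 (SE 0.07, edgeR adjusted p = 0.00588). Scaled by total counts, the value was -0.08 and the adjusted p by edgeR 0.233, so the call for this subunit rested on the scaling.

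The shared subunits could be compared with each other inside each library, again per length. The TPM of Chrna1 was 0.434, 0.493 and 0.583 of that of Chrnb1 in WT, and 1.34, 1.38 and 1.49 times it in Gpr174-/Y. Chrna1 was therefore below Chrnb1 in every WT library and above it in every Gpr174-/Y library. Chrnd was 0.14 to 0.196 of Chrnb1 in WT and 0.365 to 0.42 in Gpr174-/Y. The sum of Chrng and Chrne was 0.321 to 0.355 of Chrnb1 in WT and 0.747 to 0.814 in Gpr174-/Y, so that the gain of the gamma transcript exceeded the loss of the epsilon transcript. Within WT that sum varied little while its parts varied more, Chrng being 0.117 to 0.234 of Chrnb1 and Chrne 0.115 to 0.204. The ratio of Chrna1 to the sum was 1.35 to 1.67 in WT and 1.77 to 1.85 in Gpr174-/Y. None of these ratios overlapped between groups, and none was tested further, since 3 against 3 libraries cannot give an exact permutation p below 0.1.

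Of the genes that place and hold the receptor, only Dok7 was called under the TMM scaling. Dok7 encodes the cytoplasmic adaptor that activates MuSK. It had 28.9, 32.1 and 34.4 CPM in WT and 42.2, 40.3 and 38.6 CPM in Gpr174-/Y, without overlap, and a log2 fold change of 0.34 (SE 0.07, edgeR adjusted p = 0.00848). Its main transcripts shifted between libraries of the same group. 1 of them held 23.9% to 46.9% of Dok7 counts in WT and 48.4% to 61.8% in Gpr174-/Y, ranges that did not overlap. Another held 38.3% to 51.4% in WT and 31.6% to 42.6% in Gpr174-/Y, ranges that did. Neither difference was tested.

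Musk encodes the receptor tyrosine kinase at the centre of clustering. It had 35.4, 34.8 and 30.8 CPM in WT and 28.9, 33.2 and 36.7 CPM in Gpr174-/Y. The groups overlapped, with a log2 fold change of -0.03 (SE 0.10, edgeR adjusted p = 0.811). With total counts the sign turned (0.25), and on the log2(FPKM + 1) scale Musk was called higher (0.30, limma adjusted p = 0.0117).

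Rapsn encodes rapsyn, the scaffold bound to the receptor inside the cell. It had 34.3, 30.5 and 30.4 CPM in WT and 38.5, 35.7 and 33.3 CPM in Gpr174-/Y, overlapping between WT replicate 1 and Gpr174-/Y replicate 3. The log2 fold change was 0.18 (SE 0.08, edgeR adjusted p = 0.0937). Rapsn passed the threshold with total counts (0.45, adjusted p = 0.00146 by edgeR) and without WT replicate 1 (0.24, adjusted p = 0.0301 by edgeR). It also did so with log2(FPKM + 1) (0.43, limma adjusted p = 0.00142) and log2(FPKM + 0.1) (0.45, limma adjusted p = 0.00156).

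Lrp4 encodes the receptor for agrin. It had 24.6, 21.8 and 17.9 CPM in WT and 17.2, 17.7 and 18.5 CPM in Gpr174-/Y. Only WT replicate 3 fell among the Gpr174-/Y libraries, and the log2 fold change was -0.27 (SE 0.12, edgeR adjusted p = 0.0889).

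Ache encodes acetylcholinesterase, which ends transmission in the synaptic cleft. It had 81.3, 70.1 and 54.7 CPM in WT and 62.8, 58.6 and 54.7 CPM in Gpr174-/Y, a log2 fold change of -0.23 (SE 0.14, edgeR adjusted p = 0.21). WT replicate 3 again lay with the Gpr174-/Y libraries. Without that library Lrp4 (-0.37, edgeR adjusted p = 0.0033) and Ache (-0.36, edgeR adjusted p = 0.00484) were called lower. With total counts both were near 0 (0.01 and 0.05). Ache counts were split among several transcripts, the largest in WT holding 36.8% to 50.5% there and 21.8% to 63.9% in Gpr174-/Y, so only the sum over transcripts is used.

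**Figure D3:**
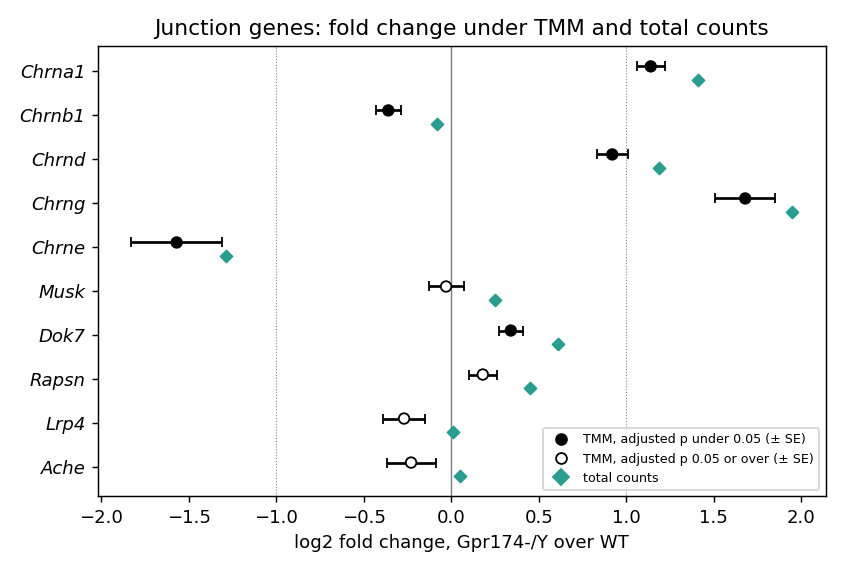
Log2 fold change of Gpr174-/Y over WT for the 10 junction genes, as edgeR estimates with TMM scaling (circles, bars ± SE, filled where the adjusted p was under 0.05) and with total counts (diamonds), dotted lines marking a 2-fold change. Chrng and Chrna1 lie right of 1 and Chrne left of -1 under both scalings, and the diamonds lie to the right of the circles throughout.

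Ordered by level, per length, the genes changed rank between genotypes. In WT, Chrnb1 was highest at 128.0 ± 4.33 TPM (SD, n = 3), then Chrna1 at 64.3 ± 7.84, which overlapped Ache at 51.9 ± 7.43, then Rapsn at 34.3 ± 1.32. Chrng at 22.1 ± 6.92, Chrne at 21.6 ± 6.55, Dok7 at 21.0 ± 3.07 and Chrnd at 20.7 ± 3.31 followed, and in that run neighbours overlapped. Musk at 8.16 ± 0.263 and Lrp4 at 4.75 ± 0.621 TPM were lowest. In Gpr174-/Y, Chrna1 was highest at 185.5 ± 15.3 TPM (SD, n = 3), then Chrnb1 at 131.8 ± 3.74 and Chrng at 92.4 ± 6.03, each apart from the next. Ache at 58.2 ± 2.42, Chrnd at 51.2 ± 5.09 and Rapsn at 50.9 ± 2.03 overlapped as neighbours, and Dok7 at 34.3 ± 0.714 was below them. Chrne at 9.56 ± 0.964 TPM came next to last, overlapping Musk at 11.4 ± 1.33, with Lrp4 lowest at 5.24 ± 0.397. Chrng and Chrne thus stood side by side in WT and 6 places apart in Gpr174-/Y. TPM values carry the same scaling question as total counts and are compared here between genes, not between groups.

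Beyond the 10 genes, 5 lists held 53 further genes of the junction and its regulation, of which 51 were tested. By the same edgeR threshold 15 were higher, 11 were lower and 25 were not called, with a median log2 fold change of 0.07, beside 27.0% higher and 27.6% lower over all genes. With total counts 31 were higher, 6 were lower and 14 were not called, and the median was 0.34. Over all 14395 genes that scaling gave 7303 higher and 2010 lower, with a median of 0.277. The list counts that follow stand beside these values for all genes. Among 17 partners of the MuSK pathway, 4 were higher, 4 were lower and 9 were not called, against 13 higher and 2 lower with total counts. Agrn, the gene of agrin, had 68.9, 84.6 and 107.3 CPM in WT and 65.3, 66.1 and 64.4 CPM in Gpr174-/Y (log2 fold change -0.41, edgeR adjusted p = 0.0495), a call that was lost with total counts (-0.15, edgeR adjusted p = 0.478). Cdk5r1, an activator of the kinase CDK5, was the only partner past 2-fold (1.22, edgeR adjusted p = 0.00127).

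Among 13 genes of junction anchoring and basal lamina, 1 was higher, 5 were lower and 7 were not called, against 4 higher and 3 lower with total counts. Colq, the collagen tail that anchors acetylcholinesterase, had 18, 16.1 and 15.6 CPM in WT and 15.8, 16.5 and 15.9 CPM in Gpr174-/Y (-0.04, edgeR adjusted p = 0.643), overlapping like Ache. Bche, the butyrylcholinesterase gene, was lower (-0.68, edgeR adjusted p = 0.00461). Utrn, the gene of utrophin, a relative of dystrophin found at the junction, was not called (0.10, edgeR adjusted p = 0.214). With total counts Colq (0.23, edgeR adjusted p = 0.0159) and Utrn (0.38, edgeR adjusted p = 0.0101) were both called higher.

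Of 8 tested genes of synaptic transcription and neuregulin signalling, 4 were higher and none was lower, beside 27.0% and 27.6% of all genes. With total counts 7 were higher, beside 7303 of all 14395 genes. Gabpa and Gabpb1, the subunits of GABP, were not called with TMM scaling (0.04 and 0.00) and were called higher with total counts (0.31, edgeR adjusted p = 0.00238, and 0.27, edgeR adjusted p = 0.014). Both were named after their values were seen. Nrg1, the neuregulin gene, rose from 8, 20 and 47 counts to 152, 158 and 186 (2.40, edgeR adjusted p = 0.00303), and its receptor gene Erbb3 rose as well (1.11, edgeR adjusted p = 0.000717).

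Of the 4 myogenic E-box factors, Myod1, Myf5 and Myog were higher and Myf6 was not called. Myog, myogenin, had 71.1, 96.2 and 130.4 CPM in WT and 284.9, 266.2 and 247.1 CPM in Gpr174-/Y (1.42, edgeR adjusted p = 0.00202). As for Chrng, WT replicate 3 was the highest WT library.

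Of 9 tested genes of the denervation response, 3 were higher, 2 were lower and 4 were not called, so the list did not move in 1 direction. Among those that rose were Ncam1, a cell adhesion gene expressed along denervated and regenerating fibres (1.01, edgeR adjusted p = 0.0033), and the transcription factor gene Runx1 (1.30, edgeR adjusted p = 0.00648). The 2 called lower were Hdac4 and Trim63, a histone deacetylase and a ubiquitin ligase both known to be induced by denervation, with 35.1 to 38.6 against 26.5 to 28.3 CPM for Hdac4 and 120.3 to 126.3 against 55.0 to 70.6 CPM for Trim63. With total counts Trim63 was still called lower (-0.72, edgeR adjusted p = 0.00202) and Hdac4 was not called (-0.13, edgeR adjusted p = 0.224). Both were picked out after their values were seen.

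The gamma-for-epsilon pattern was set beside other pairs of developmental and adult muscle genes, by the same within-library log2 ratio of TPM. The ratio of Myh3 to Myh4, the embryonic and fast IIB myosins, was 2.39 higher in Gpr174-/Y, or 5.26-fold. The ratio of Actc1 to Acta1, cardiac and skeletal actin, was 0.86 higher, or 1.81-fold. In both pairs, as for Chrng and Chrne, the groups did not overlap, and each exact permutation test gave p = 0.1, or 0.1 adjusted over the 4 ratios computed. The pairs differed in which gene was called. Myh3 and Actc1 themselves were not called (edgeR adjusted p = 0.124 and 0.144), whereas Chrng was higher and Chrne lower.

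Cell markers moved with the same contrast, and in bulk muscle fewer cells of a type and less RNA per cell cannot be told apart. All 18 mature fibre genes, of which 17 fell past 2-fold, were lower, and their share of all counts was 13.6% to 18% in WT and 7.18% to 7.69% in Gpr174-/Y. Their log2 fold changes were largest for the fast myosins Myh2 (-2.80) and Myh1 (-1.76), the calcium buffer Pvalb (-2.34) and myoglobin, Mb (-2.02). Of 9 regenerating fibre genes, 6 were higher and none was lower, with summed levels of 6761.9 to 8882.2 CPM in WT and 7866.4 to 9837.1 CPM in Gpr174-/Y, so those sums overlapped. All 8 macrophage genes were higher (1113.5 to 1600.6 against 2616.3 to 2644.1 CPM, with Itgam at 1.60 and Cd68 at 1.22 on the log2 scale), all 8 endothelial genes were lower (989.8 to 1189 against 603.3 to 689.9 CPM), and of 8 fibroblast genes 4 were higher and 3 lower. None of these markers was at 0 in any group, and their part in the junction results was not tested.

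Schwann cells and axons are the other cells of the junction. Of 10 Schwann cell genes, 9 were not called and 1 was lower (2 higher and none lower with total counts), the sums being 150.8 to 177.0 CPM in WT and 140.5 to 161.7 CPM in Gpr174-/Y. Of 8 nerve terminal genes, Chat and Slc18a3 were not found by symbol among the genes of the table and 5 were too scarce to test. The sums over the genes found were 2.12 to 4.61 CPM in WT against 5.91 to 7.6 CPM in Gpr174-/Y. The 1 that was tested, the choline transporter gene Slc5a7, had 20, 32 and 66 counts in WT and 133, 129 and 114 in Gpr174-/Y (1.35, edgeR adjusted p = 0.0116). Slc5a7 made up most of those sums, at 1.24 to 3.71 CPM in WT and 5.3 to 6.36 CPM in Gpr174-/Y. Among the scarce genes Syt2 went the other way, with 10, 9 and 6 counts in WT and 5, 4 and 4 in Gpr174-/Y. The rest of the scarce genes overlapped between groups. Syt2 was named after its values were seen. How many junctions or axons the samples held cannot be read from these levels.

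**Figure D4:**
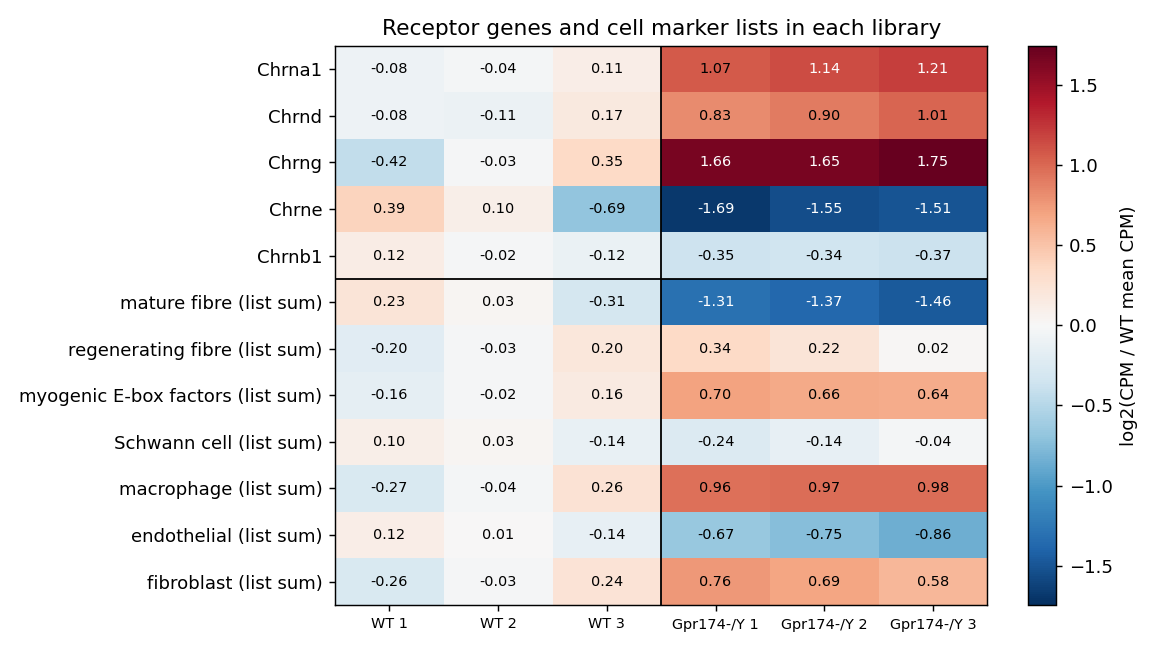
Log2 of CPM over the WT mean CPM in each library for the 5 receptor subunit genes (above the line) and for the summed CPM of 7 marker lists (below it), red for above and blue for below the WT mean. In WT, replicate 3 stands on the Gpr174-/Y side of replicate 1 for Chrng (0.35 against -0.42) and Chrne (-0.69 against 0.39) and for the mature fibre (-0.31 against 0.23) and macrophage sums (0.26 against -0.27).

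The genes with profiles most like those of Chrng and Chrne over the 6 libraries were found by the Euclidean distance between log2 CPM values centred on each gene's mean, among 14395 genes. For Chrng the 5 nearest included Socs3 (0.119), Il7r (0.139), Gpnmb (0.167) and Lcn2 (0.219), and the nearest of the other junction genes, Chrna1, lay at 0.816. For Chrne they were Plaat1 (0.0896), Tmem233 (0.121), Tlcd4 (0.123), Cdc14a (0.15) and Tcea3 (0.156), and the nearest junction gene was Chrnb1 at 1.54. The nearest of 14395 genes must lie at least as near as the nearest of the 10. The order of these distances was therefore fixed by the selection and does not show how far the junction genes moved together. The 6 libraries also share 1 group contrast.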

How the data were processed

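RNA was sequenced from 3 WT and 3 Gpr174-/Y muscles. The labels name an Illumina TruSeq kit and the study's methods a BGISEQ-500 instrument; the submitters' processing notes list HISAT2 2.0.4, Bowtie2 2.2.5, RSEM 1.2.12 and GRCm39. The deposited table gives estimated counts, FPKM and TPM per RefSeq transcript, which the authors computed per library. Whether counting used strand is not given in the sources used here. The 58843 transcripts were summed to 18089 genes by Entrez identifier and the estimated counts rounded. Genes were tested with edgeR 4.0.16 (R 4.3.3; TMM, filterByExpr, robust quasi-likelihood F-test, Benjamini-Hochberg over 14395 genes), called at an adjusted p under 0.05 and, separately, also at an absolute log2 fold change over 1. The SE is the log2 fold change divided by the square root of F. The pipeline was tested on simulated data. The depth behind a value is its count, so genes with few counts are the least precise. TPM served only for comparisons between genes or within a library. Named genes were all 10 junction genes, Gpr174, 9 further genes of the junction and of muscle and, from each list, up to 4 genes past both thresholds with the largest change; exceptions are stated. The members and the gene lists were chosen with earlier results of these data known. Alternatives were DESeq2 1.42.0 (size factors and Wald test), limma 3.58.1 (voom, and log2 of FPKM plus 1 or 0.1), total counts, no filter, a minimum of 10 counts, a replicate block and each library left out. RefSeq windows are on GRCm38.p6, another build than the counts, so coordinates are given for those windows only. Some items are not reported here.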

Additional observations from a re-analysis of the deposited data

How the results depend on the processing

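The numbers of genes called at an adjusted p under 0.05 (7863) and past both thresholds (1192) came to 0 with replicates 1 and 3 alone, as did the junction genes called higher (4), lower (2) and past both thresholds (3) and the 26 genes called in the other junction lists; the log2 fold changes stayed close there (Chrng 1.69, Chrne -1.54, Chrna1 1.12). The tests then rest on 2 libraries a group. With log2(FPKM + 1), 645 genes passed both thresholds. The junction genes called lower numbered 1 with total counts and under both FPKM pseudocounts, and 4 without WT replicate 3. Leaving out each library gave 5457 to 9165 genes at an adjusted p under 0.05, 924 to 1826 past both thresholds (1826 without WT replicate 3) and Chrng and Chrne log2 fold changes of 1.52 to 1.90 and -1.82 to -1.33. Musk turned sign with total counts (0.25), log2(FPKM + 1) (0.30), log2(FPKM + 0.1) (0.36; limma adjusted p = 0.0117 in both, so that 6 junction genes were called higher) and without WT replicate 1 (0.02) or Gpr174-/Y replicate 1 (0.06), and leaving out single libraries it ranged from -0.12 to 0.06. Under those same 3 scalings Lrp4 gave 0.01, 0.02 and 0.03, Ache 0.05, 0.05 and 0.05, and Colq 0.23, 0.23 and 0.26, and Colq ranged from -0.08 to 0.03 when single libraries were left out, with the sign turned without WT replicate 1. The cause was not tested. The replicate numbers did not pair the samples (correlations of deviations 0.016, -0.028 and -0.008); with a replicate block 6812 genes were called, 1139 past both thresholds. Over the 35 named genes and 16 alternatives, 479 results kept direction and call, 52 lost the call, 9 gained one and 15 turned sign; 5 gave no value because a low-value filter removed Nrg1 or Chrna10. The log2 Chrng to Chrne difference ranged from 2.82 to 3.74. Genes under about 100 counts, such as Gpr174, Slc5a7 and Nrg1 in WT, are the least precise.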

Other observations

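Nicotinic receptor subunits of neurons and other cells were scarce in the muscle. Of 11 such genes 9 were in the table and 3 could be tested. Chrna10, which encodes a subunit known from the inner ear and immune cells, had 2.92, 2.38 and 1.63 CPM in WT and 0.717, 0.753 and 0.698 CPM in Gpr174-/Y, without overlap (log2 fold change -1.66, edgeR adjusted p = 0.0025). Chrna4 had 0.747, 0.417 and 0.393 CPM against 0.956, 0.989 and 0.837 CPM and was called higher, and Chrnb2 was not called; both were named after their values were seen.

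The regenerating fibre list held changes of unequal size. Mymx and Mymk, the genes of the membrane proteins that drive myoblast fusion, were higher in Gpr174-/Y (1.84, edgeR adjusted p = 0.00147, and 1.46, edgeR adjusted p = 0.00135), as was Tnnt2, the cardiac troponin T of immature fibres (1.30, edgeR adjusted p = 0.0022). Myh8, the perinatal myosin gene, had 1676.9 to 2700.6 CPM in WT and 2131.2 to 2776.9 CPM in Gpr174-/Y, and was not called (0.20, edgeR adjusted p = 0.412). It was named after its values were seen.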
